A study of Sus scrofa with 9 samples.

Results

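The genes of vitamin C transport, synthesis and recycling examined here were 7 in number, namely SLC23A1, SLC23A2, SLC23A3, SLC2A1, SLC2A3, GSTO1 and GULO. They were chosen by symbol for their part in the handling of vitamin C or, for SLC23A3, for its gene family. Their measured values were not used for the choice, though earlier results of these data were known. All 7 were found in both deposited tables, which held 18933 and 18992 genes. The measurement was 5-hydroxymethylcytosine (5hmC) by hMeDIP-seq, in which sheared genomic DNA is captured with an antibody to 5hmC and sequenced, and a value is the normalized count of reads over all exons of a gene. The cells were mesenchymal stem/stromal cells (MSCs) grown from the subcutaneous abdominal fat of female domestic pigs, which entered the study at 3 months of age. Lean-MSCs came from pigs on standard chow and Obese-MSCs from pigs on a 16-week high-fat/high-fructose diet, with 3 libraries per group and 9 in all. From the third passage Obese-MSCs were grown through a further passage, in which treated cultures received added vitamin-C at 50 μg/mL for 48 h and untreated cultures did not. By the study's account the growth medium itself held a smaller amount of a vitamin C derivative, so the untreated cells were not free of it, and the comparison is of added vitamin-C against the medium alone. The same 3 untreated Obese libraries stood in both tables, and the labels do not say which treated culture came from which pig. The study gives a range of passages for its assays but no single passage for the Lean-MSCs. A difference in passage could therefore not be told apart from diet.

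Vitamin C enters cells in its reduced form, ascorbate, through the sodium-dependent transporters encoded by SLC23A1 (SVCT1, mainly of absorbing epithelia) and SLC23A2 (SVCT2, of most other tissues). Its oxidized form, dehydroascorbate, passes through facilitative glucose transporters such as those of SLC2A1 (GLUT1) and SLC2A3 (GLUT3) and is reduced again inside the cell, in part by the omega-class glutathione transferase of GSTO1. GULO encodes L-gulonolactone oxidase, the enzyme that completes ascorbate synthesis in the liver of most mammals, pigs included, and is a pseudogene in humans. Ascorbate also serves the TET enzymes that make 5hmC from 5-methylcytosine, so the culture treatment added to the substrate of the transporters described here. The comparisons asked whether 5hmC over these genes differed with diet, and whether it differed after vitamin-C.

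In the Sscrofa11.1 assembly SLC23A1 lies on chromosome 2 from 141258318 to 141277555, SLC23A2 on chromosome 17 from 13848726 to 14012054 and SLC23A3 on chromosome 15 from 121105800 to 121203990. SLC2A1 lies on chromosome 6 from 168535398 to 168561170 and SLC2A3 on chromosome 5 from 62963635 to 63041955. GSTO1 and GULO are both on chromosome 14, from 115206434 to 115216624 and from 11299858 to 11332892. The annotated span of SLC23A3 shares 84287 bases with NHEJ1, that of SLC2A1 shares 20710 bases with ZNF691, and that of SLC23A1 touches PAIP2 over 1890 bases and MZB1 over 15. Exon positions were not used here, so whether any of these overlaps includes exons was not tested. For the same reason levels were not divided by exon length, and no order of levels between the genes is given.

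The untreated Obese values of the 7 genes were 1.08 to 1.15 times as high in the table with treated cells as in the other, so no level was compared across tables. Library totals lay between 494566 and 522269 normalized counts in the table with Lean-MSCs and between 547242 and 593846 in that with treated cells, with a median gene between 11.9 and 14.2. No library stood apart in these totals or in its size factor, which ranged from 1.01 to 1.03. The exons of the MSC markers NT5E, THY1 and ENG carried 12.4 to 76.1 normalized counts in every library. Of the markers that MSCs should lack, CD34 and PTPRC carried 13.4 to 73.4, and CD14 was at 4.83 or less. None of these markers met the criteria given below, but ENG was higher in every Obese than in every Lean library (52.0 to 67.4 against 31.9 to 51.7) and CD14 was listed at 0 in all Lean libraries, and the part of either in the results was not tested. 5hmC over exons is not expression, so these levels do not identify the cells, and fewer marked cells cannot be told apart from less 5hmC per cell.

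For none of the 7 genes did a difference in 5hmC, between Obese-MSCs and Lean-MSCs or between treated and untreated Obese-MSCs, pass either rule applied. The study's criteria were an unadjusted p-value up to 0.05 together with group means that differed by a ratio no lower than 1.4 or no higher than 0.7, and the other rule was a limma adjusted p-value up to 0.05. Applied here to the deposited values, with diet 0 of the 7 met the study's criteria, against 4.50% of all genes, and with vitamin-C 0 of the 7 did so, against 1.92%. By ratio alone, with diet 0 of the 7 reached 1.4 and 0 of the 7 lay at 0.7 or lower, against 15.9% and 13.5% of all genes. Among the 15146 genes tested with limma, which leave out the lowest genes, 1712 and 1590 did so. Shares of 4.50% and 1.92% are small for a list of 7, so 0 of 7 by the study's criteria is not a result particular to the list. The shares by ratio alone are larger, and whether 0 of 7 departs from them was not tested. With limma, 0 of 7 genes passed in either comparison, as did 0 of all 15146 and 15192 genes tested, and none of the 7 reached an unadjusted limma p of 0.05, against 1031 (6.81%) and 148 (0.974%) of the genes tested.

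**Figure D1:**
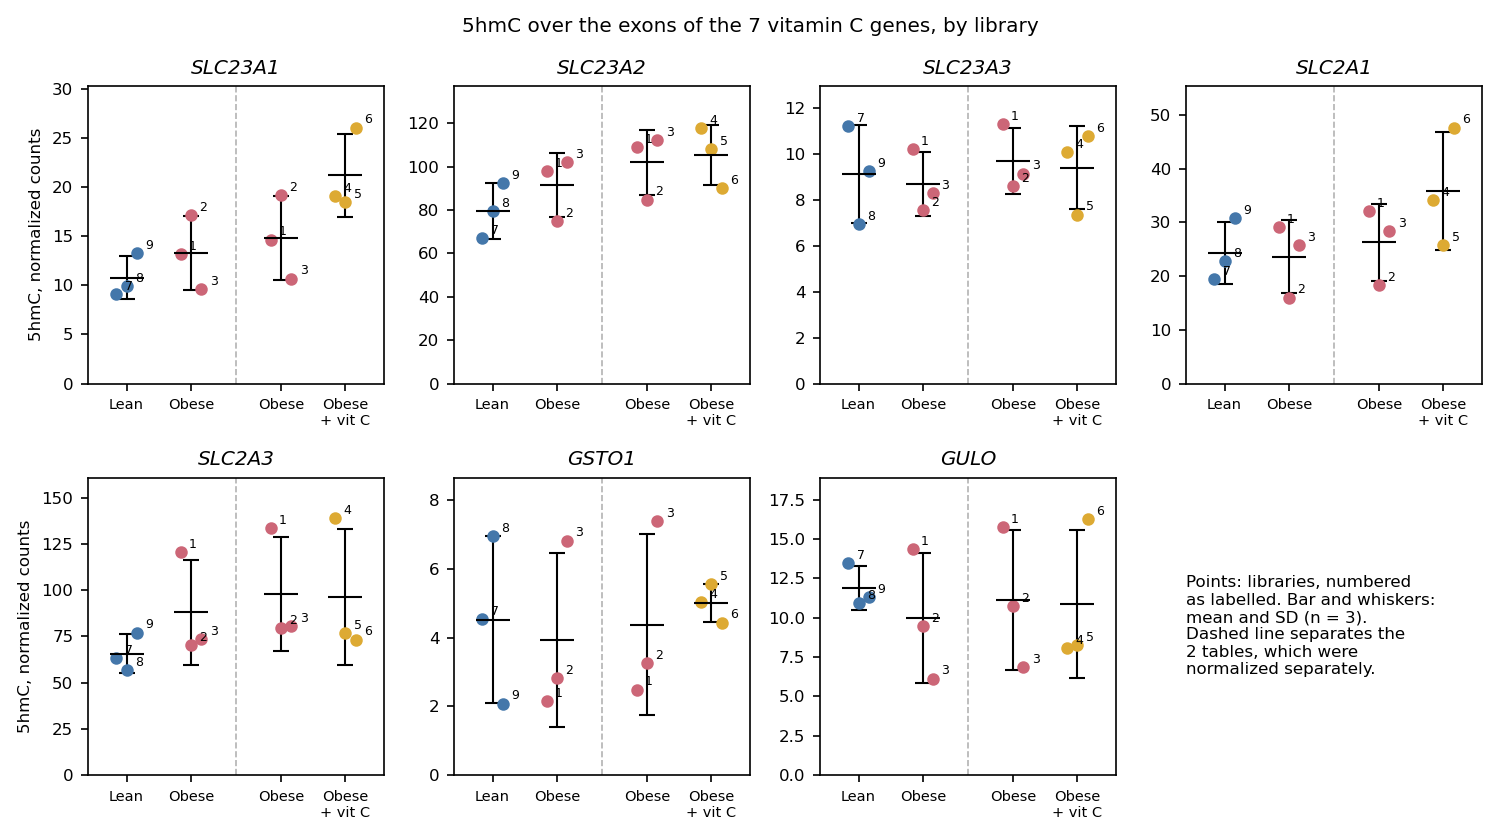
5hmC in normalized counts (vertical axis, from 0) for each of the 7 genes in every library, with group means and SD (n = 3). The groups overlap in all 7 genes on both sides of the dashed line, and SLC2A3 has 1 high library in each Obese group, untreated library 1 and treated library 4.

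SLC23A2 encodes the ascorbate transporter that most cells outside absorbing epithelia use. It had 66.9, 79.4 and 92.4 normalized counts in the Lean libraries and 98.1, 74.8 and 102 in the Obese libraries. The Obese library 2 lay inside the Lean range and the other two lay above it. Obese-MSCs averaged 91.7 ± 14.8 against 79.6 ± 12.7 (SD, n = 3 each), a log2 ratio of 0.20 (two-sided exact permutation test, p = 0.3). The limma adjusted p was 0.908, and the 95% interval of the difference on the log2(value + 1) scale ran from -0.26 to 0.66.

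With vitamin-C, SLC23A2 had 118, 108 and 90.3 normalized counts, against values of 109, 84.8 and 112 in untreated cells. The treated and untreated values covered nearly the same range, and the means of 105 ± 13.9 and 102 ± 15.0 (SD, n = 3 each) differed by a log2 ratio of 0.05 (exact permutation test, p = 0.7). The limma interval was -0.44 to 0.53. In both comparisons SLC23A2 had the narrowest interval of the 7 genes.

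SLC23A1, the epithelial ascorbate transporter, had 9.13, 9.93 and 13.3 normalized counts in the Lean libraries and 13.2, 17.1 and 9.64 in the Obese libraries. Obese libraries 1 and 3 lay within the Lean range and Obese library 2 above it. Obese-MSCs averaged 13.3 ± 3.75 against 10.8 ± 2.23 (SD, n = 3 each), a log2 ratio of 0.30 (exact permutation test, p = 0.5), with a limma adjusted p of 0.924 and an interval of -0.45 to 0.98.

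After vitamin-C, SLC23A1 had 19.1, 18.5 and 26.1 normalized counts, against 14.7, 19.2 and 10.7 in untreated cells. The untreated library 2 lay above treated libraries 4 and 5, so the groups overlapped, while the other two untreated libraries were below every treated one. The means were 21.2 ± 4.22 and 14.9 ± 4.27 (SD, n = 3 each). Their ratio of 1.43 was the only one among the 7 genes past a ratio threshold in either comparison. With vitamin-C 12.9% of all genes reached 1.4 and 8.80% lay at 0.7 or lower. Among the 15192 genes tested with limma, which leave out the lowest genes and include the 7, 1122 and 785 did so. For SLC23A1 the exact permutation test gave p = 0.3, the limma adjusted p rounded to 1.00, and the interval ran from -0.19 to 1.20. The log2 ratio of 0.51 ranged from 0.32 to 0.74 when single libraries were removed.

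SLC23A3 belongs to the same family, but its product is not known to carry ascorbate. Its normalized counts were 11.2, 6.94 and 9.24 in the Lean libraries and 10.2, 7.56 and 8.28 in the Obese libraries, so every Obese value lay within the Lean range. The log2 ratio was -0.07 (exact permutation test, p = 0.8; limma adjusted p 0.991). In the other table it had 10.1, 7.35 and 10.8 with vitamin-C and 11.3, 8.61 and 9.14 in untreated cells, a log2 ratio of -0.04 (exact permutation test, p = 0.9). The limma intervals were -0.82 to 0.71 for diet and -0.82 to 0.73 for treatment, and the sign of the ratio changed in both when single libraries were left out.

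SLC2A3 encodes GLUT3, a high-affinity glucose transporter that also takes up dehydroascorbate. It had 63.4, 56.6 and 77.0 normalized counts in the Lean libraries and 121, 70.0 and 73.3 in the Obese libraries. Obese library 1 lay far above all others, whereas Obese libraries 2 and 3 fell between the Lean values. The log2 ratio of 0.42 was the highest of the 7 genes in this comparison, with means of 88.0 ± 28.3 against 65.6 ± 10.4 (SD, n = 3 each; exact permutation test, p = 0.3). Without Obese library 1 it was 0.13, and limma gave an adjusted p of 0.821, with an interval of -0.13 to 0.89.

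A single library was also high for SLC2A3 among the treated cultures, with 139 in treated library 4 and 76.7 and 73.2 in the other two. The untreated values in that table were 133, 79.5 and 80.7. The means of 96.2 ± 36.9 and 97.9 ± 30.8 (SD, n = 3 each) gave a log2 ratio of -0.02 (exact permutation test, p = 0.8), with an interval of -0.66 to 0.57.

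SLC2A1, the widely expressed GLUT1, had 19.4, 22.8 and 30.8 normalized counts in the Lean libraries and 29.1, 16.0 and 25.8 in the Obese libraries. The ranges coincided almost fully, and the log2 ratio was -0.04 (exact permutation test, p = 0.9; limma adjusted p 0.991; interval -0.69 to 0.58). With vitamin-C it had 34.2, 25.8 and 47.7 normalized counts, against 32.1, 18.4 and 28.4 in untreated cells. Treated libraries 4 and 6 exceeded every untreated library, and treated library 5 lay within the untreated range. The means of 35.9 ± 11.0 and 26.3 ± 7.12 (SD, n = 3 each) had a ratio of 1.37, just under the threshold of 1.4 (log2 ratio 0.45; exact permutation test, p = 0.4), and the interval ran from -0.25 to 1.10. This log2 ratio was 0.19 without treated library 6.

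GSTO1, whose product reduces dehydroascorbate with glutathione, had the widest relative spread between libraries outside the treated group. The Lean libraries had 4.53, 6.96 and 2.08 and the Obese libraries 2.16, 2.82 and 6.83, with the highest and lowest values 3.34 and 3.16 times apart within each group. All GSTO1 values were low, where the median gene of a library lay between 11.9 and 14.2. The part of low counts in the spread of GSTO1, and in its call described below, was not tested. The log2 ratio was -0.20 (exact permutation test, p = 0.8) and the limma interval -1.33 to 0.98, the widest of the 7. Treated libraries held 5.03, 5.56 and 4.44, all between the untreated values of 2.49, 3.25 and 7.41. The log2 ratio there was 0.19 (exact permutation test, p = 0.8; interval -0.82 to 1.34). Without untreated library 3, which was the highest, the log2 ratio rose to 0.80 and GSTO1 met the study's criteria as high, so the absence of that call rests on 1 library. That setting had fewer untreated libraries, and 396 of all 18992 genes met the criteria in it.

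GULO had 13.5, 10.9 and 11.3 normalized counts in the Lean libraries and 14.3, 9.46 and 6.13 in the Obese libraries. The Lean values kept within 1.24 times of each other, and the Obese values, which lay above and below them, within 2.34 times. Lean-MSCs averaged 11.9 ± 1.39 and Obese-MSCs 9.98 ± 4.13 (SD, n = 3 each), a log2 ratio of -0.25 (exact permutation test, p = 0.5; limma adjusted p 0.916; interval -1.06 to 0.46). With vitamin-C GULO had 8.05, 8.27 and 16.3, against 15.7, 10.7 and 6.85 in untreated cells. The means of 10.9 ± 4.70 and 11.11 ± 4.46 (SD, n = 3 each) differed by a log2 ratio of -0.03 (exact permutation test, p = 1), with an interval of -0.89 to 0.83.

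**Figure D2:**
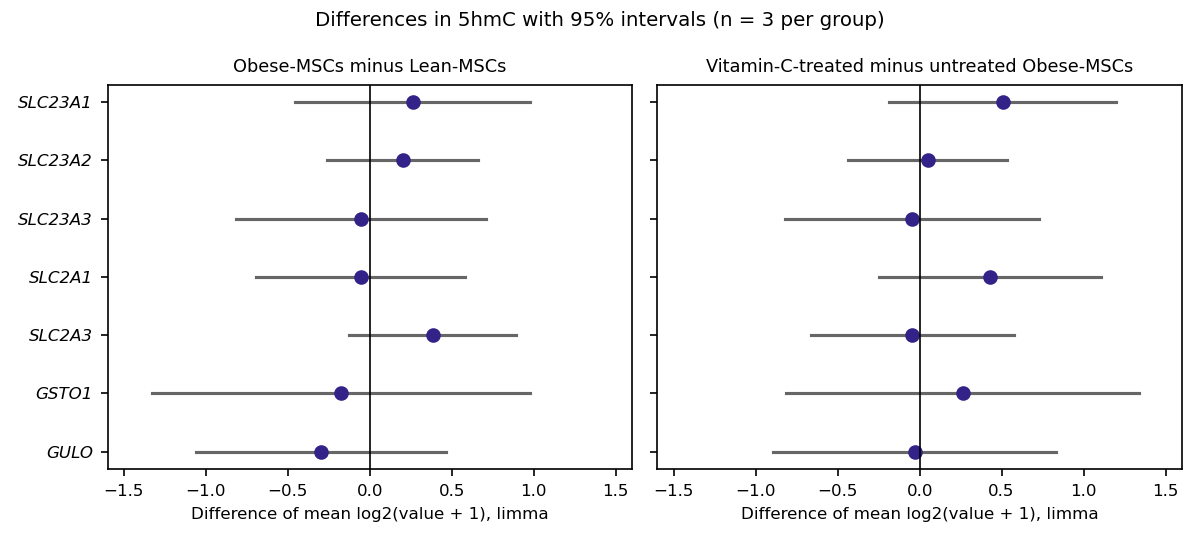
Difference in mean log2(value + 1) per gene from limma (horizontal axis, points) with 95% intervals (lines, n = 3 per group), for diet on the left and vitamin-C on the right. Every interval spans 0, that of SLC23A2 being the narrowest and that of GSTO1 the widest in each comparison.

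The 95% intervals give the range of differences compatible with these libraries, taken as independent. For SLC23A2 a difference beyond 1.58-fold upwards or 0.836-fold downwards with diet lay outside the 95% interval, and with vitamin-C the limits were 1.45-fold and 0.739-fold. For SLC23A1 with vitamin-C they reached 2.298-fold upwards and 0.877-fold downwards. For GSTO1 they ran from 0.399-fold to 1.97-fold with diet and from 0.568-fold to 2.53-fold with vitamin-C. These folds are on the log2(value + 1) scale, which understates the change of genes with low values.

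Placed among all genes, the 7 genes lay between the ratio thresholds with diet, and with vitamin-C all but SLC23A1 did. Its ratio of 1.43 reached 1.4, as did those of 1122 of the 15192 genes tested with limma. SLC2A1 followed with a log2 ratio of 0.45, and the medians given here do not show these single genes. With diet 3 of them had a ratio above 1 and 4 below, and their median absolute log2 ratio was 0.20, against 0.26 for all genes tested with limma. With vitamin-C 4 were above and 3 below, with a median absolute log2 ratio of 0.05, against 0.18. No gene of the 7 had groups that did not overlap, where 11.8% of all genes did in the diet comparison and 5.91% in the treatment comparison. The median residual SD of the 7 genes on the log2(value + 1) scale was 0.34 with diet and 0.42 with vitamin-C, near the 0.38 and 0.40 of all genes tested.

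**Figure D3:**
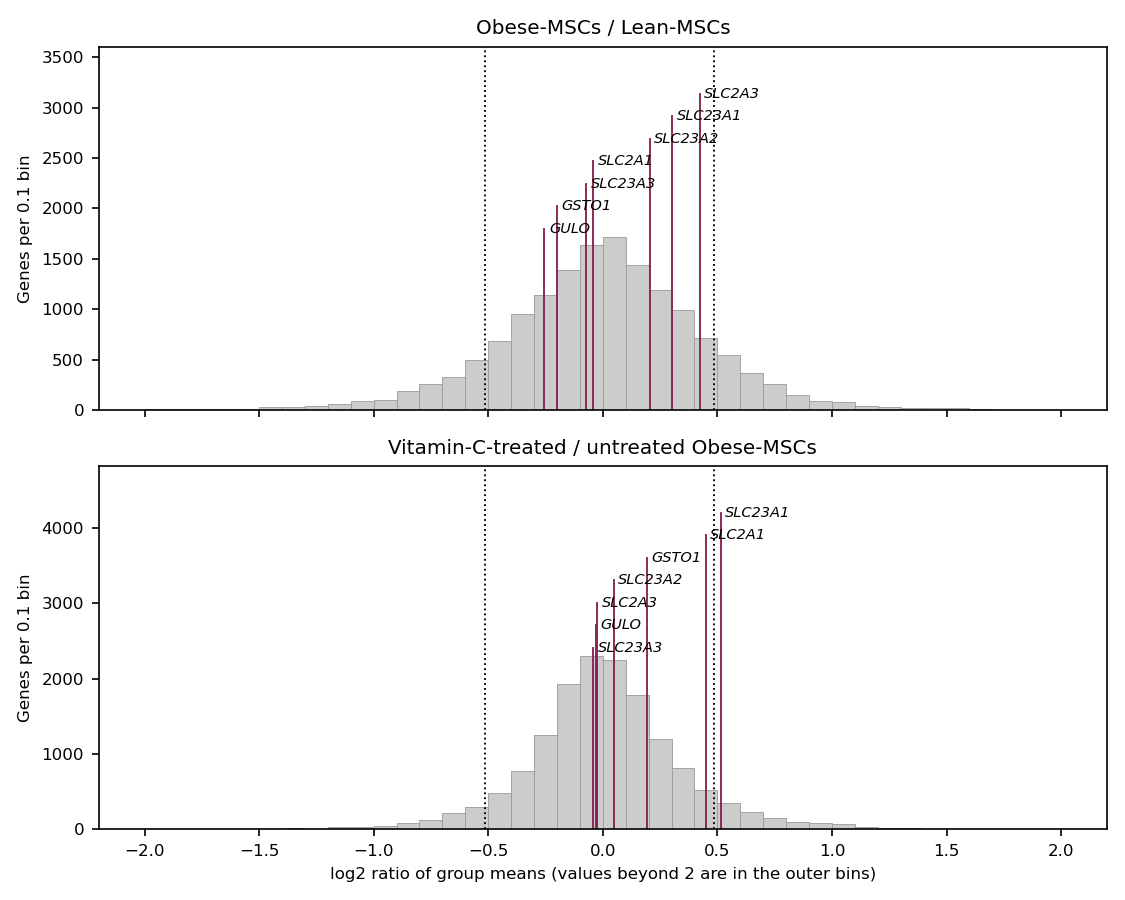
Histogram of log2 ratios of group means for all genes in the upper 80% by mean (grey, genes per bin of 0.1), with the 7 genes as labelled lines and the ratio thresholds of 1.4 and 0.7 as dotted lines. With diet all 7 lie between the thresholds, and with vitamin-C SLC23A1 at 0.51 lies just beyond the upper one.

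The wider handling of vitamin C was covered by 29 further genes for transport, recycling, synthesis and partners of the transporters, of which 24 were in the tables. GSTO2, CYB5R3, CYB561A3, CYB561D1 and CYB561D2 were not matched by symbol and were not analysed here. With diet 0 of the 24 met the study's criteria as high and 1 as low, against 2.07% and 2.43% of all genes, and the ratio was above 1 for 15 and below 1 for 9. In treated versus untreated Obese-MSCs 0 of the 24 met them as high and 0 as low, against 1.11% and 0.806%, with 10 ratios above 1 and 14 below. The groups did not overlap in 3 of the 24 with diet, against 11.8% of all genes, and in 0 with vitamin-C, against 5.91%. Limma tested 23 of them, CYB5A being too low, and 0 passed an adjusted p of 0.05 in either comparison. An unadjusted limma p of 0.05 was reached by 2 of the 23 with diet, against 6.81% of all genes tested. With vitamin-C 0 reached it, against 0.974%.

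The gene that met the criteria as low was TXNRD3, a thioredoxin reductase gene of a family whose members can regenerate ascorbate, on chromosome 13 from 73276249 to 73336782. Obese libraries carried 3.61, 9.54 and 7.05 normalized counts and Lean libraries 11.3, 11.9 and 12.3, with every Obese library below every Lean one. The means were 6.73 ± 2.98 and 11.9 ± 0.494 (SD, n = 3 each), a log2 ratio of -0.82 (exact permutation test, p = 0.1, the smallest value the design allows). The limma adjusted p was 0.733, and the call was lost when the test was made on log2 values, at a p threshold of 0.01, after quantile normalization and without Obese library 3 or any single Lean library, at log2 ratios of -0.77 to -0.85. With vitamin-C TXNRD3 had 12.1, 8.30 and 7.998 normalized counts, against 4.16, 10.6 and 7.76 in untreated cells, and the groups overlapped (log2 ratio 0.33; exact permutation test, p = 0.4). The other thioredoxin system genes, TXN, TXN2, TXNRD1 and TXNRD2, had diet log2 ratios between -0.17 and 0.05.

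In CYB561, named after its values were seen, the Obese and the Lean values did not overlap either. With diet this held for 3 of the 24 genes, near the share of 11.8% among all genes. CYB561 encodes a membrane cytochrome that passes electrons from ascorbate across vesicle membranes. Obese libraries carried 11.2, 7.58 and 3.77 normalized counts and Lean libraries 2.299, 2.98 and 3.08. Its log2 ratio of 1.43 rests on these low Lean values (exact permutation test, p = 0.1), the limma adjusted p was 0.709, and the study's criteria were not met with all libraries. Without Obese library 3 CYB561 met them as high, at a ratio of 3.37, so the absence of that call rests on 1 library. That setting had fewer Obese libraries, and 955 of all 18933 genes met the criteria in it. With vitamin-C the groups overlapped, at a log2 ratio of 0.11.

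Among the other hexose transporter genes, those of SLC2A8 and SLC2A10 had the larger diet ratios. SLC2A8 carried 10.3, 6.60 and 8.26 normalized counts in Obese and 3.51, 4.96 and 9.21 in Lean libraries, a log2 ratio of 0.51 (exact permutation test, p = 0.3). SLC2A10 (GLUT10) had 23.4, 25.7 and 15.6 against 18.0, 17.9 and 12.4, a log2 ratio of 0.42 (exact permutation test, p = 0.3), and met the study's criteria as high without Obese library 3, at a ratio of 1.53. SLC2A2 (GLUT2) and SLC2A4, the insulin-responsive GLUT4, had diet log2 ratios of 0.32 and 0.06. With vitamin-C the log2 ratios were -0.54 for SLC2A2, 0.30 for SLC2A4, -0.35 for SLC2A8 and -0.17 for SLC2A10, and the groups overlapped in each (exact permutation p from 0.3 to 0.6).

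Upstream of GULO, the X-linked gene RGN encodes the lactonase that makes its substrate. Obese libraries carried 21.8, 15.1 and 24.5 normalized counts and Lean libraries 48.9, 13.9 and 14.5. A single Lean library, number 7, lay above the rest, and the log2 ratio of -0.33 changed to 0.53 without it. With vitamin-C RGN had 10.1, 19.5 and 23.4, against 24.2, 17.3 and 26.9 in untreated cells, a log2 ratio of -0.37 (exact permutation test, p = 0.4). The earlier steps of the path, PGM1, UGP2, UGDH and AKR1A1, had diet log2 ratios between -0.26 and 0.42 and treatment log2 ratios between -0.23 and 0.14.

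**Figure D4:**
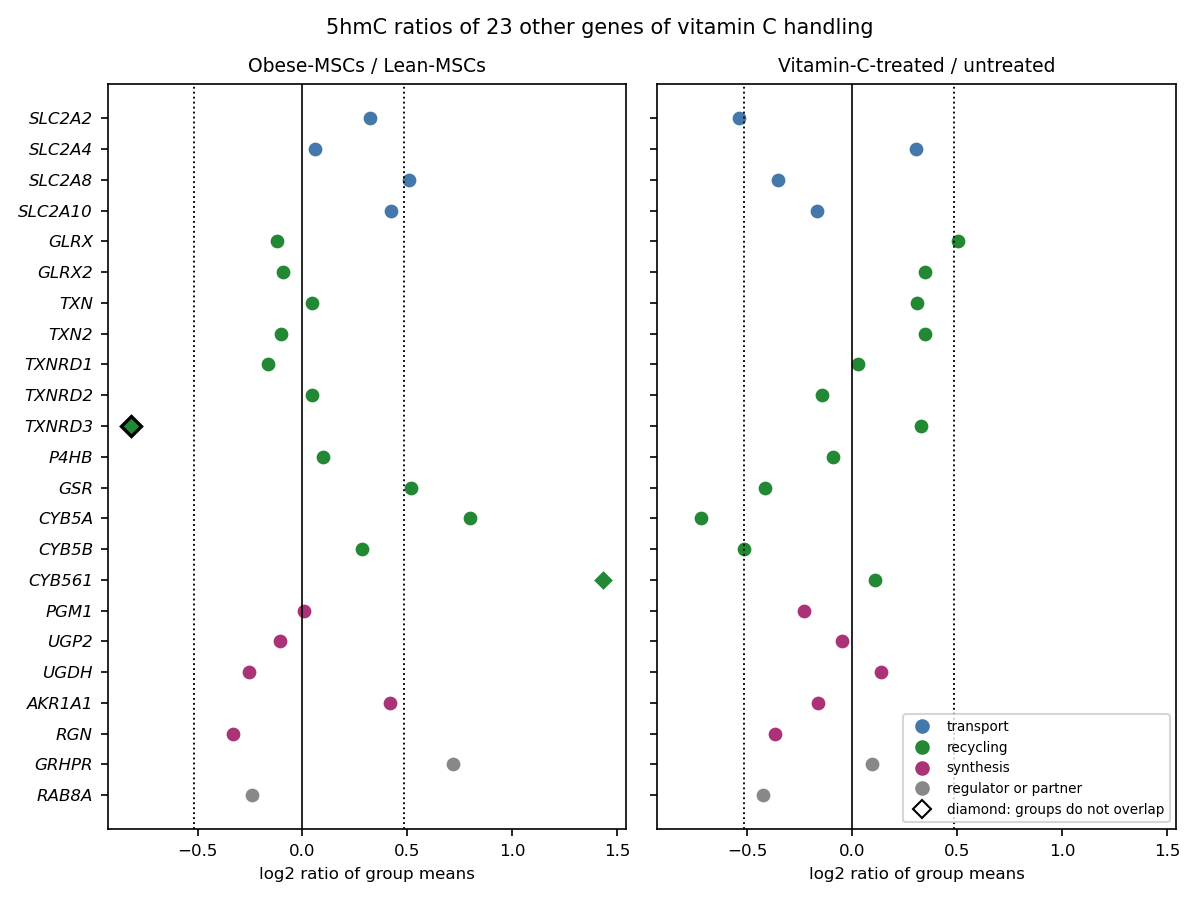
log2 ratio of group means (horizontal axis) for 23 of the 24 genes of the wider list, coloured by role, with ratio thresholds of 1.4 and 0.7 as dotted lines and diamonds where the groups do not overlap. With diet TXNRD3 (black edge) is the gene past the study's criteria and CYB561 the highest ratio, and with vitamin-C no gene is marked.

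The profiles most like each of the 7 genes were looked up by Pearson's r on log2(value + 1), taking the lower of the values over the 6 libraries of each table, among 14814 genes in the upper 80% of both. The closest were PM20D2 for SLC2A3 (0.98), ESYT1 for GSTO1 (0.97), THBS2 for SLC23A3 (0.95), IDNK for SLC2A1 (0.94), SYP for GULO (0.94), ESRRG for SLC23A2 (0.93) and QRFP for SLC23A1 (0.92). The next were KCNK10, DPY19L4, RNF144A, TSHZ3, LOC110260127, OSBP and GALNS in the same order, at 0.96, 0.95, 0.93, 0.93, 0.91, 0.92 and 0.92. These are the highest of many correlations over few libraries, and the tables share their untreated libraries, so they describe these profiles alone. No other gene of the 7 was among the closest to any of them.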

How the data were processed

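hMeDIP-seq libraries of swine MSCs were analysed in 3 groups of 3, with groups taken from the submitters' titles. According to the study's methods and the submitters' processing notes, the authors aligned paired reads to susScr 11.1 with Bowtie2 2.3.3.1, removed duplicates with Picard 1.67, counted exonic reads per gene with HTSeq 0.9.1 and processed them with edgeR 3.28.1. The deposited signal values are normalized counts, fractional and scaled within each table, so depth in reads is unknown, no counting interval is given, and each comparison stayed within its table. In the table of treated cells 645 values of numerical residue were set to 0, and 25 gene names had become dates.

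The study's criteria were applied here with a two-sided equal-variance test per gene on the deposited values. Limma 3.58.1 (R 4.3.3, trend on the mean) was fitted to log2(value + 1), pseudocount 1, keeping the upper 80% of genes by mean, and p-values were adjusted (Benjamini-Hochberg) across every gene tested. All 7 genes passed this filter in both tables. For a single gene the two-sided exact permutation test had 20 arrangements and could not go below p = 0.1. Labels do not tie libraries to separate animals, so p-values measure the spread between these libraries. Log2 ratios of group means carry no pseudocount. The tests were checked on simulated data. Python 3.11.15, numpy 2.4.6, pandas 2.3.3, scipy 1.17.1 and matplotlib 3.10.9 were used.

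The 7 genes and the wider lists were chosen with earlier results of these data known. Named genes were the 7, wider-list genes past the study's criteria, close paralogs or partners (SLC2A2, SLC2A4, SLC2A8, SLC2A10, GSTO2, RGN), the 2 most alike profiles per gene, and those said to be named after seeing values. GSR, GLRX2, AKR1A1 and CYB5B were named after their calls without single libraries were seen. Wider-list genes given only within a range of ratios were also not among those set for naming. The values of 1 gene of the wider list are counted but not reported here. Positions are from RefSeq, Sscrofa11.1, matched by symbol. Alternatives were pseudocounts of 0.5 and 5, no filter or the upper 50%, size factors, quantile normalization, a test on log2 values, a p threshold of 0.01 and each library left out.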

Additional observations from a re-analysis of the deposited data

How the results depend on the processing

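The count of the 7 genes past the study's criteria stayed at 0 in the diet comparison under every alternative run, and with limma in both comparisons. With vitamin-C it was 0 to 1 with single libraries left out, GSTO1 being called without untreated library 3. Of 126 recomputed log2 ratios of the 7 genes, 108 kept their sign and side of the criteria, 17 changed sign and 1 passed the criteria, and each of these changes came from leaving out a library, so from fewer samples. The ranges of the ratios that changed sign were, with diet, -0.24 to 0.10 for SLC23A3, -0.22 to 0.17 for SLC2A1, -0.86 to 0.25 for GSTO1, -0.16 to 0.41 for SLC2A4 and -0.63 to 0.53 for RGN. With vitamin-C they were -0.0699 to 0.15 for SLC23A2, -0.15 to 0.11 for SLC23A3, -0.38 to 0.27 for SLC2A3, -0.0881 to 0.80 for GSTO1, -0.45 to 0.31 for GULO, -0.12 to 0.48 for SLC2A4 and -0.32 to 0.49 for CYB561. Without single libraries the 24 genes of the wider list had 0 to 4 past the criteria with diet, where all 18933 genes had 763 to 955. With vitamin-C they had 0 to 1, where all 18992 genes had 387 to 534. The 4 were SLC2A10, GSR and CYB561 as high and GLRX2 as low without Obese library 3, a setting with 955 of all genes called. None of these 4 was called with every library kept. AKR1A1 was called as high without Obese library 2, beside TXNRD3, and CYB5B as low with vitamin-C without untreated library 1. A p threshold of 0.01 lowered the count of all genes past the criteria from 852 to 216 with diet and from 364 to 66 with vitamin-C. Limma called 0 to 1 genes with diet when a library was left out, 1 without Obese library 1 and 1 without library 2, and 0 in all other settings run. The cause was not tested. No paired analysis was made because the groups share no replicate numbers and the labels do not tie treated to untreated cultures. Treated and untreated cultures may share pigs, and every p-value and interval with vitamin-C takes them as independent. A paired fit could give other intervals, and this was not tested. The number of libraries, 3 a group, limits the precision of every value.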
